A study of Mus musculus with 2 samples.

Results

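The rodent microRNA genes of the Mir466, Mir467, Mir669 and Mir297 names, lettered and numbered copies included, were examined in adrenal gland. They were chosen by symbol alone: 81 of the 2202 microRNA genes in the tables carry such a symbol in GENCODE M21. Of these, 71 lie in the gene Sfmbt2 on chromosome 2, on its strand, and 10 lie elsewhere. The data are 2 microRNA-seq libraries made from total RNA of adrenal tissue of strain C57BL/6J, numbered as biological replicates 1 and 2 of a single group. No treatment or genotype other than wild type is given, the age is unknown, and the labels disagree on whether the sex was recorded (female in a note, not collected in the sex field). Both carry the same donor identifier and nothing says that they came from separate animals, so a difference between them may be technical.

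MicroRNAs are short RNAs cut from hairpin precursors, and bases 2 to 8 of the mature strand, the seed, do most of the pairing with target messages. Sfmbt2 encodes a Polycomb group protein and is imprinted, with expression from the paternal copy in extra-embryonic tissue. A long intron of this gene holds one of the largest microRNA clusters of the mouse, built from many rounds of local duplication and found in rodents. Its microRNAs are known mainly from embryonic stem cells and placenta, and a member family, miR-669a, has been studied in muscle progenitors.

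The mature sequences show what kind of sequence carries these names. RefSeq (GRCm38.p6) gave a mature sequence for 8 of the 81 genes, all of them outside Sfmbt2. They are printed 5′ to 3′ with the seed in capitals, because their runs of alternating purines and pyrimidines are a feature of the hairpins of this group:
Mir466q (chr3:28419988-28420007, plus strand): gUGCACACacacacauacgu
Mir466k (chr3:85467396-85467418, plus strand): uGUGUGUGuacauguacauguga
Mir466j (chr10:60960802-60960824, plus strand): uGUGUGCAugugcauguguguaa
Mir466i, 3p arm (chr13:17747552-17747573, plus strand): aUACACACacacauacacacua
Mir467f (chr11:69635419-69635439, minus strand): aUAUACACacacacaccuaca
Mir467g (chr5:34732872-34732892, minus strand): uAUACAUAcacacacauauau
Mir467h (chr9:115381898-115381919, plus strand): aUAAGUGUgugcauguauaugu
Mir669n (chr3:115979905-115979924, plus strand): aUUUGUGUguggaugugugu

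The 8 seeds all differ from each other, although the genes share only 3 names. Among the 1738 mature entries of the RefSeq table, Mir467h shares its seed with miR-668-5p, and the other seeds occur once. That table gave no mature sequence for the genes inside Sfmbt2. Whether those genes share any of these seeds was therefore not seen. Of the 8 genes printed, only Mir466q had a count, with 0 in replicate 1 and 2 in replicate 2. From 78.9% to 100% of the neighbouring base pairs in these 8 sequences step from purine to pyrimidine or back, against a median of 45% over all mature entries. The whole hairpins have the same character. Over the 81 hairpins in the GENCODE transcripts the median share of such steps was 86.2%, and over the 2121 other microRNA genes it was 44.3%. The sequence of Mir467h was found in 3 annotated hairpins, and each of the other 7 in its own hairpin only.

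Sense counts over all microRNA genes came to 9137907 in the replicate 1 library and 6570375 in the replicate 2 library. Levels are counts per 1000000 of these totals (CPM). A mature microRNA is read once whatever the length of its hairpin, so CPM is not scaled by length unless said. A count of 0 allows up to 3 counts, which is 0.328 CPM in replicate 1 and 0.457 CPM in replicate 2. Such limits and all intervals cover counting error only. MicroRNAs of neuroendocrine cells, which the adrenal medulla contains, were abundant, with 4 of 4 listed genes at 10 counts or more in both libraries and sums of 54062 and 51805 CPM. No single microRNA defines adrenal tissue. Of the 10 listed microRNAs of embryonic stem and germ cells 9 matched a symbol, 3 had 10 counts or more in both libraries, and they summed to 12.7 and 7.61 CPM, with Mir367, Mir290a and Mir295 at 0. The 8 listed testis microRNAs summed to 0.219 and 0.913 CPM, with 5 at 0, and the 7 of striated muscle to 1.09 and 1.67 CPM, with 5 at 0. The striated muscle genes at 0 include the numbered copies Mir1a-1, Mir1a-2, Mir133a-1 and Mir133a-2. Reads with several alignments are in no gene's count, so these sums and 0s leave out any read that fits several genes. How many such reads the lists lost was not tested. The 5 listed kidney microRNAs summed to 131 and 140 CPM, with 4 at 10 counts or more in both libraries and none at 0. Mir122, the microRNA of liver, stood at 128 and 71.5 CPM, and Mir126a of endothelium at 61677 and 54325 CPM. The part of such cells in the levels below, and in the differences between the libraries, was not tested.

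The 81 genes together had 9651 counts (1056 CPM) in replicate 1 and 7449 counts (1134 CPM) in replicate 2. These counts came from few genes. Of the 81, 12 had any count, 8 reached 10 counts in each library, and 69 were at 0 in both. In shares, 9.88% reached 10 counts in each and 85.2% were at 0, beside 18.3% and 62.9% of all 2202 microRNA genes. The 8 genes held 99.9% of the summed counts in each library, and Mir467d alone held 38.7% and 40.3%. No read was counted on the opposite strand of any of the 81 genes in either library, which allows up to 0.0311% and 0.0403% of their summed counts.

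The 4 name groups differed in their part of these counts, which cover only reads placed at a single locus. The Mir467 group gave 739 and 786 CPM from 3 of its 17 genes. The Mir669 group gave 316 and 346 CPM, with 6 of its 30 genes counted. The Mir466 group, with 28 genes the next largest, had 4 and 7 counts in all, which is 0.438 and 1.07 CPM. The Mir297 group of 6 genes had 1 and 3 counts, all from Mir297a-2. Members of the Mir466 group that have been studied elsewhere, such as Mir466l in macrophages and Mir466h in cell death, were at 0 in both libraries.

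**Figure D1:**
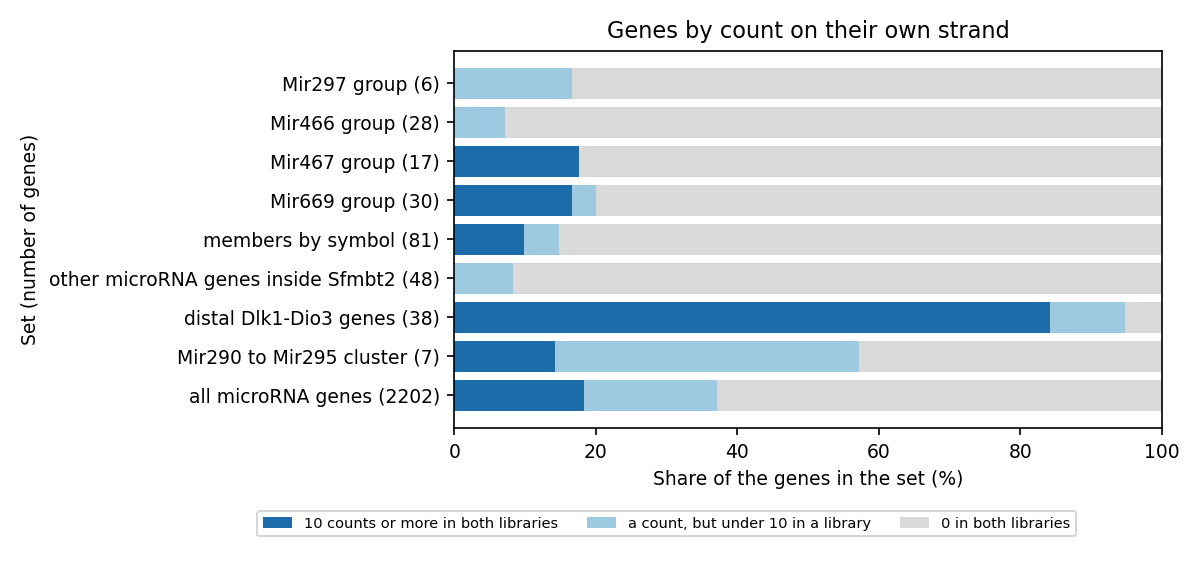
Share of genes in each set by their count, for the 4 name groups, all 81 members and the sets they are compared with; the number of genes stands in brackets. The dark bars, 10 counts or more in both libraries, cover 9.88% of the members, 84.2% of the distal Dlk1-Dio3 genes and 18.3% of all microRNA genes. Only reads placed at a single locus are counted, and the sets differ in shared sequence.

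Mir467d, which lies at chr2:10507630-10507714 (mm10), was the leading gene with 3731 and 3002 counts, or 408 CPM in replicate 1 and 457 CPM in replicate 2. It ranked 115th and 112th among the 2202 genes by CPM. Mir467e, the next Mir467 gene upstream at chr2:10505721-10505807, had 2013 and 1321 counts, or 220 and 201 CPM. Both libraries placed Mir467d above Mir467e, by 1.85-fold and 2.27-fold in CPM. Mir467c, at chr2:10473931-10474027, had 1012 and 843 counts, or 111 and 128 CPM. It was the only Mir467 gene with a count on the upstream side of the cluster. The other 14 genes of this name had no count in either library.

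Among the Mir669 genes, Mir669o (chr2:10514300-10514395) led with 1160 and 970 counts, or 127 and 148 CPM. Mir669c (chr2:10509296-10509404) had 1125 and 770 counts, or 123 and 117 CPM. Mir669l (chr2:10468971-10469068) had 483 and 446 counts, or 52.9 and 67.9 CPM. These 3 genes lie on both sides of the cluster and together made up most of the Mir669 signal. Mir669h (chr2:10518155-10518279), the last gene of the cluster, had 81 and 60 counts, or 8.86 and 9.13 CPM. Mir669e (chr2:10467495-10467613) had 40 and 27 counts, or 4.38 and 4.11 CPM. The exact 95% counting intervals of Mir669h (7.04 to 11.0 CPM in replicate 1) and Mir669e (3.13 to 5.96 CPM) did not overlap in replicate 1, nor in replicate 2 (6.97 to 11.8 and 2.71 to 5.98 CPM).

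The remaining counts were near the limit of detection. Mir466n had 4 and 5 counts, Mir297a-2 had 1 and 3, and Mir669f had 1 and 0. Outside Sfmbt2, Mir466q in an intron of Tnik had 0 and 2 counts, and the other 9 genes had none.

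These levels cover only reads placed at a single locus, since the tables keep reads with several alignments in a row of their own, so the level and order of genes that share sequence are uncertain. Ordered by mean CPM, the 8 genes ran Mir467d, Mir467e, Mir669o, Mir669c, Mir467c, Mir669l, Mir669h and Mir669e. The values of each gene in both libraries lay above both values of the next, except for Mir669c and Mir467c. That pair overlapped, with Mir669c 1.11 times as high as Mir467c in replicate 1 and 0.913 times as high in replicate 2. Mir669o and Mir669c were close as well, at ratios of 1.03 and 1.26. Per 100 nt of hairpin, Mir467d stood at 509 CPM, Mir467e at 242 and Mir669o at 143, while Mir467c (123) and Mir669c (110) changed places.

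**Figure D2:**
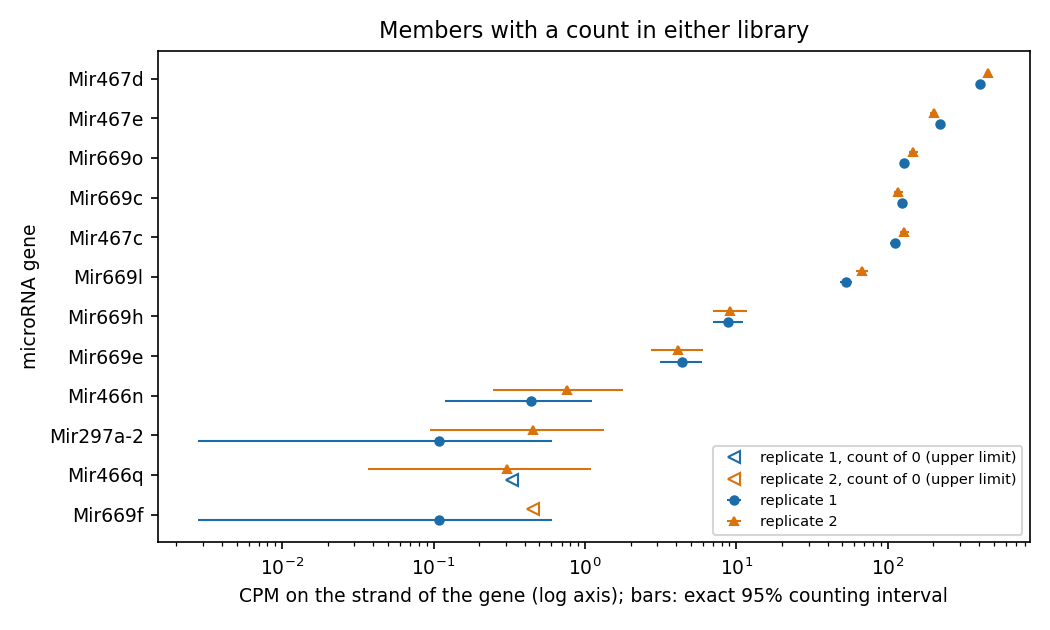
Level of the 12 members with a count, as CPM on a log axis, for each library; bars are exact 95% counting intervals and open triangles are upper limits for a count of 0. The upper 6 genes lie between 52.9 and 457 CPM, Mir669h and Mir669e lie below 10 CPM, and the lowest 4 genes had at most 5 counts in a library.

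The counted genes were not spread evenly along the intron. In the 2 annotated 23-exon transcripts of Sfmbt2 all 71 genes lie in a single intron of 62.5 kb, intron 10 of one and intron 11 of the other. They begin 96.2 kb from the annotated start of the gene, span 51.6 kb, and follow each other at a median distance of 0.298 kb from start to start. The first 13 genes held 1537 and 1319 counts, which was 15.9% and 17.7% of the summed counts, from 5 genes. The next 38 genes, from Mir466b-1 to Mir669a-12 over 29.7 kb, had no count in either library. The last 20 genes held 8114 and 6128 counts, 84.1% and 82.3% of the sum, from 6 genes. In both libraries the counted reads lay at the ends of the array, with none in its middle.

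**Figure D3:**
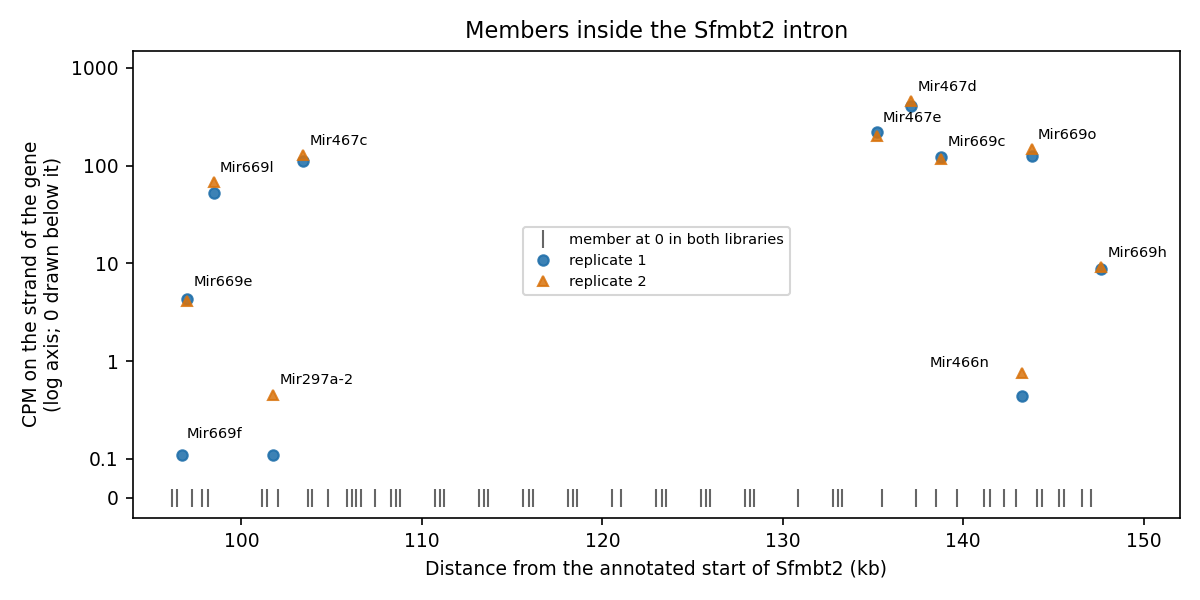
CPM of the 71 members inside Sfmbt2 against the distance of each from the annotated start of Sfmbt2 in kb; circles are replicate 1, triangles replicate 2, and grey ticks are genes at 0 in both. The 38 ticks from 103.7 to 133.3 kb are the unbroken stretch without counts between Mir467c and Mir467e.

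The stretch without counts also holds near-identical copies. It has all 10 genes named Mir467a, whose starts lie a median of 2462 nt apart, with Mir466 and Mir669 genes between them. Among the 81 members, 24 genes fall into 6 sets with the same hairpin sequence over its whole length. The largest sets are 9 Mir669a genes (Mir669a-4 to Mir669a-12) and 6 Mir467a genes (Mir467a-2, Mir467a-4, Mir467a-5, Mir467a-7, Mir467a-8 and Mir467a-9). Each hairpin was cut into all windows of 20 nt, about the length of a mature microRNA, and each window was looked for on both strands of the 2202 annotated hairpins. Of the 38 genes in the middle, 31 had no window of their own, and the most that any of the other 7 had was 32.7%. Reads with several alignments were 35.9% and 36.0% of the libraries and are in no gene's count. A count of 0 for such a gene is therefore no measure of its level, and the limit of 3 counts does not hold for it.

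Each of the 8 members with 10 counts or more in both libraries had windows of its own, from 37.9% of windows in Mir467d to 95% in Mir669e, with a median of 58.8%. The median over the 60 genes inside Sfmbt2 that were at 0 was 0%. Over all 2202 genes it was 98%. Over the 403 of them with 10 counts or more in both libraries it was 100%, and 16 of the 403 had no window of their own. A gene without own windows can thus still be counted. The share of own windows is no exact measure of whether reads are placed at a single locus. Among the 8 members, Mir467d had the highest level and the lowest share, with 25 of its 66 windows its own, and Mir669e the lowest level and the highest share. Own windows did not come with counts throughout either. Of the 69 genes at 0, 37 had at least 1 window of their own, and 17 had as large a share as Mir467d or larger, 9 inside Sfmbt2 and 8 outside. Mir466g, with all 61 windows its own, and Mir466h, with 93.5%, start 0.295 and 0.591 kb after Mir669o and were at 0 in both libraries. The windows compare annotated hairpins only. They cover each hairpin over its whole length, and mature sequences were not in hand for the genes inside Sfmbt2. An own window there need not lie where reads fall. Further copies of these repeat-like sequences in the rest of the genome were not searched.

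**Figure D4:**
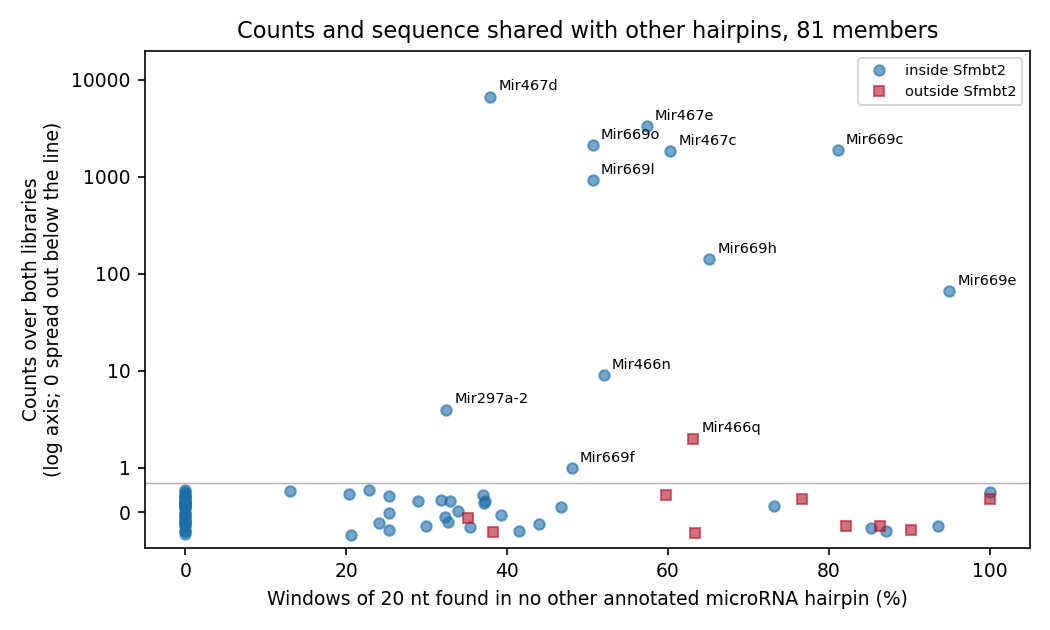
Counts over both libraries against the share of 20-nt windows found in no other annotated microRNA hairpin, for the 81 members inside (circles) and outside (squares) Sfmbt2; genes at 0 are spread out below the line. Genes with 10 counts or more lie at 37.9% or above, and genes at 0 lie along the whole axis from 0% to 100%.

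Members at 0 shared windows within their own name group. A common window of 20 nt joined 17 of the 24 Mir669 genes at 0, led by the miR-669a copies. In the same way a window joined 11 of 14 in the Mir467 group, which were Mir467b and the 10 Mir467a genes. In the Mir466 group 13 of 26 shared a window, among them 7 of the Mir466b genes, Mir466c-1, Mir466c-2, Mir466e and Mir466p. Mir297b, Mir297c, Mir297a-3 and Mir297a-4, 4 of the 5 Mir297 genes at 0, shared one too. Sharing also reached counted genes and crossed the name groups. Mir467d had 41 of its 66 windows in common with Mir467a-2, and Mir669l had 15 of its 79 in common with Mir466m.

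The same intron holds 48 further annotated microRNA genes that carry predicted-gene symbols instead of these names. They had 6 and 4 counts in all, from 4 genes, Gm22072, Gm22239, Gm25263 and Gm26398, and none reached 10 counts in either library. Another large imprinted cluster, the distal Dlk1-Dio3 microRNAs on chromosome 12 from Mir379 to Mir410, differed in its pattern: 32 of its 38 genes had 10 counts or more in both libraries, 2 were at 0, and the sum was 25942 and 31576 CPM. The cluster from Mir290a to Mir295 on chromosome 7, typical of embryonic stem cells, summed to 6.13 and 4.87 CPM over 7 genes, of which 3 were at 0. No test of these differences between clusters was made. All these counts cover only reads placed at a single locus. The median share of own windows was 22.8% for members inside Sfmbt2 and 100% for genes that are no members. It was not computed for the 48 further genes or for the other clusters. Differences in level between these sets therefore cannot be told apart from differences in shared sequence.

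The libraries were compared to ask which genes differed between them by more than counting error. Each ratio divides replicate 2 by replicate 1 after TMM scaling of the library sizes, and the test compares 2 libraries and not conditions. The test knows counting error only, so its p-values do not measure the spread between replicates. By an exact binomial test (two-sided, adjusted by Benjamini and Hochberg over the 426 genes with at least 20 counts), 3 of the 8 testable members differed at an adjusted p under 0.05, beside 56.1% of all genes tested. Higher in replicate 2 was 1 of 8 (25.8% of all genes) and higher in replicate 1 were 2 of 8 (30.3%). Scaled by total counts, 5 of 8 differed, beside 57% of all genes tested. Of these 5, 4 were higher in replicate 2 (35.2% of all genes) and 1 in replicate 1 (21.8%), so the split depends on the scaling. TMM lowered every log2 ratio by 0.10 against total counts.

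Mir467e was lower in replicate 2, with a log2 ratio of -0.23 (exact 95% counting interval -0.34 to -0.13, adjusted p = 1.11e-05, exact binomial test). Mir669c was also lower there, at -0.17 (-0.31 to -0.04, adjusted p = 0.0193, exact binomial test), but its adjusted p was 0.404 with total counts. Mir669l was higher in replicate 2, at 0.26 (0.07 to 0.45, adjusted p = 0.0132, exact binomial test). Mir467d, at 0.06 (-0.01 to 0.13), Mir467c, at 0.11 (-0.02 to 0.24), and Mir669o, at 0.12 (-0.01 to 0.24), did not pass. With total counts these 3 were at log2 ratios of 0.16, 0.21 and 0.22 and passed. Mir669h (-0.57 to 0.44) and Mir669e (-0.95 to 0.55) had wide intervals and did not pass.

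These differences were small. The 8 log2 ratios ran from -0.23 to 0.26, and none of the 8 genes differed by more than 1.5-fold. Of the 426 genes tested 120 did (28.2%), but the 426 include genes with few counts, where counting error alone widens the ratio. The genes were not matched for counts, so this does not show that the members vary less. The median of the 8 log2 ratios was 0.0013, beside -0.025 over all genes tested. The summed counts of all 81 genes had a log2 ratio of -0.00058, and 0.10 by total counts. The interval of Mir467e lay below 0, while that of Mir467d, which starts 1.91 kb further downstream, included 0. Whether the ratios of these neighbours differ from each other was not tested.

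**Figure D5:**
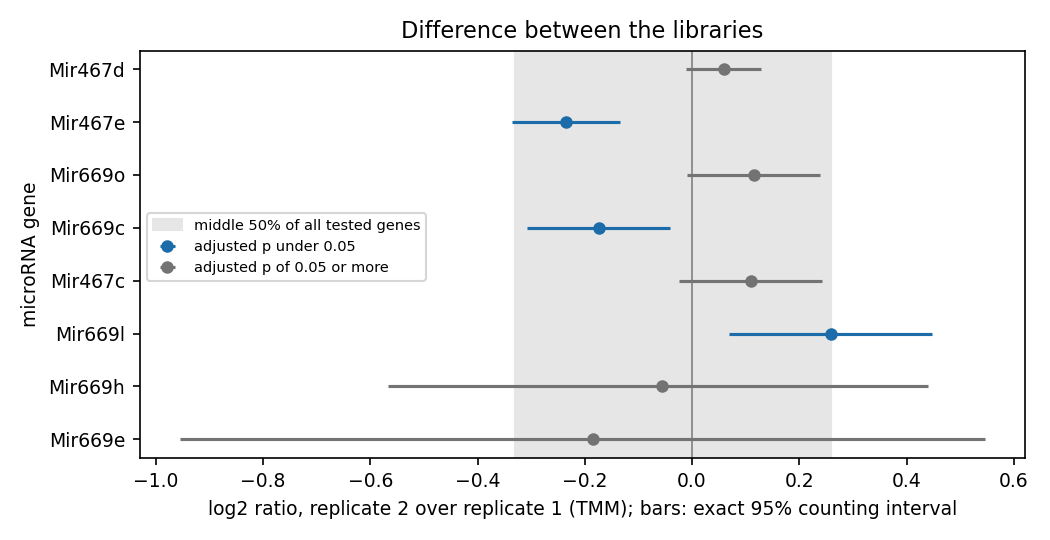
log2 ratio of replicate 2 over replicate 1 for the 8 members with at least 20 counts, with exact 95% counting intervals; the grey band is the middle 50% of all 426 genes tested, from -0.33 to 0.26. Mir467e and Mir669c lie below 0 and Mir669l above it, and the intervals of the other 5 include 0.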

How the data were processed

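The authors deposited, for each of 2 adrenal libraries, raw read counts per microRNA gene (2202 genes), on mm10 with GENCODE M21 per the descriptions deposited beside the tables. The labels' protocols name adapter trimming. The sources used here name no aligner or counting tool. The 3 columns of counts have no header and were read from their values as either strand, the strand of the gene (the larger stranded total) and the opposite strand. The 4 rows that name no gene were left out of library sizes. All 2202 identifiers matched GENCODE M21, and hairpin windows came from its transcripts. Scaling used edgeR 4.0.16 (TMM) and, as an alternative, DESeq2 1.42.0 size factors, in R 4.3.3. The exact binomial test used SciPy 1.17.1 with 0.5 counts added for ratios only. It was tried on simulated data with counting error only and library sizes by total counts. How it behaves with spread beyond counting error, or with TMM scaling, was not tested. Named are all members with a count. Members at 0 are named by the window most of their group share, since mature sequences were in hand for 8 genes. Mir466l, Mir466g and Mir466h were named after their values were seen. Members, lists and tests were chosen with earlier results of these data known. Alternatives concerned the strand, scaling, count minimum, denominator and window length.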

Additional observations from a re-analysis of the deposited data

Results flagged for a closer look

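Reads with several alignments made up 35.9% of the replicate 1 library and 36.0% of replicate 2, and stand in a row of their own that no comparison used. They number 6721333 and 5210526 reads, 696 and 699 times the summed counts of the 81 genes. How many of them came from these genes is not recorded in the tables and was not tested.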

How the results depend on the processing

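The summed share of the 81 genes was 0.109% of counts. It was 0.120% in the counts on either strand, where the members' own counts are the same and the total over genes is smaller, and 0.0515% with all reads of the library as denominator. Leaving out a library gave 0.106% and 0.113%, and the genes inside Sfmbt2 alone gave 0.109%. The number of members detected in both libraries was 8 under 6 of 7 alternatives and 10 at a minimum of 1 count. The number that differed between the libraries was 3, and 5 with library sizes by total counts. It stayed at 3 with median-of-ratios size factors, with no filter on low counts and in the counts on either strand. By total counts Mir669h had a log2 ratio of 0.046 in place of -0.057, without passing in either. The number of members with no window of their own was 32 for windows of 20 nt, and 32 for 18 nt and for 22 nt, lengths chosen after seeing the data. A search of the genome for copies was not run, because no genome sequence was used here. No paired analysis was possible because there is a single group. Depth limits the 4 members with under 20 counts over both libraries. They were tested with no filter on low counts, and none of the 4 passed.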
